A study of Mus musculus with 16 samples.

Results

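Wire injury strips the endothelium of a carotid artery and stretches its wall, and a neointima of smooth muscle cells and leukocytes then forms inside the vessel. The comparison described here set 3 carotid arteries taken 14 days after wire injury against 3 uninjured carotid arteries, across all mouse miRNAs on an Agilent array. The arrays were chosen by their titles. They are 6 of the 16 arrays of a series that also covers day 1 (3 arrays), day 7 (3) and day 28 (4). All mice were female ApoE-/- animals on the C57BL/6 background, aged 6 to 8 weeks in the day 7, 14, 28 and uninjured groups per the labels, and the injured mice ate a western-type diet. ApoE-/- mice lack apolipoprotein E and develop high plasma cholesterol, and the controls carried the same deletion, so no wild-type artery enters the comparison. The control is an artery with no operation rather than a sham operation. The sources used here do not say whether it came from separate mice, nor what those mice ate. The array names 611 mouse miRNAs, of which 321 could be tested. The other 290 were not well above background on every array of any of the 5 groups, and 255 of them were at background on all 6 arrays.

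miRNAs are short RNAs that an Argonaute protein carries to messenger RNAs. They pair with a target mainly through the seed, bases 2 to 8 from the 5′ end, and lower its stability and translation. Each hairpin precursor gives 2 strands, and the array's older names mark the less abundant one with an asterisk. In the artery wall, miR-143 and miR-145 belong to contractile smooth muscle, miR-126 to endothelium, and miR-223, miR-142 and miR-155 to leukocytes. Adventitial nerves and fat bring further sets, among them miR-124 in neurons and miR-193b, miR-365 and miR-378 in fat.

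The mature sequences of the miRNAs on which the results turn are given below, from RefSeq on GRCm38.p6, read 5′ to 3′ with the seed in capitals. Of 35 array names looked up through their current strand names, 28 matched. The first set rose at day 14 and the second fell. miR-146a and miR-146b share a seed, as do miR-34a and miR-34b-5p, miR-322 with miR-15a and miR-15b, miR-30a with miR-30c, and miR-29b with miR-29c. miR-503 carries a seed of its own and lies 256 bases from miR-322 on the same strand of the X chromosome.
miR-155: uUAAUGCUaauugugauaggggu
miR-223: uGUCAGUUugucaaauacccca
miR-21: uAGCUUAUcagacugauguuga
miR-146a: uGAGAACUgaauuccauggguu
miR-146b: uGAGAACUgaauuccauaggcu
miR-34a: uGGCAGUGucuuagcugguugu
miR-34b-5p: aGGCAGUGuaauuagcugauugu
miR-322: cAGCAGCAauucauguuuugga
miR-15a: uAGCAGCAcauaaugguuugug
miR-15b: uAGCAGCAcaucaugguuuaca
miR-503: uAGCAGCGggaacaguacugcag
miR-30a: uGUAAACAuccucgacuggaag
miR-30c: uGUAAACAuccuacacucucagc
miR-29b: uAGCACCAuuugaaaucaguguu
miR-29c: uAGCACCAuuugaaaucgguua
miR-193b: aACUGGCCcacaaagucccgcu
miR-365: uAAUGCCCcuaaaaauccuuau
miR-137: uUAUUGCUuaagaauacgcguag
miR-129-5p: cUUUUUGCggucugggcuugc
miR-129-3p: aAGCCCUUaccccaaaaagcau
miR-218: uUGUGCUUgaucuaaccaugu
The share of signal that a probe takes from a near-identical relative was not tested, so values within a family that shares a seed are less separate than their names.

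Signal is given throughout as log2 of a probe's intensity over its array's 75th percentile, taken over the 395 mouse probes well above background on all 16 arrays. A value of 0 is thus that percentile, and -5.79 is the floor to which lower values were set. The percentile itself was 401, 538 and 624 intensity units on uninjured replicates 1 to 3 and 518, 718 and 1432 on day 14 replicates 1 to 3. The uninjured arrays detected 251, 258 and 292 miRNAs, and the day 14 arrays 285, 305 and 335. Agreement between arrays of a group, as Pearson's r over the tested miRNAs, was 0.929 to 0.971 at day 14 and 0.973 to 0.996 in uninjured arteries. All 6 arrays lay on 1 slide.

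Several arrays stood apart from their groups. Day 14 replicate 1 lay over 1 log2 below both other day 14 arrays for 11 tested miRNAs and above both for 12. Of the 11, 10 were among the 15 tested miRNAs of a nerve and neuron list, and the 12 included 8 with names of the miR-297, miR-466, miR-467 and miR-669 families. Uninjured replicate 3 lay over 1 log2 above both other uninjured arrays for 34 miRNAs, 6 of them nerve-listed, and below both for 6. Day 14 replicate 3, the brightest array, lay below both others for 31 and above for 1. Results are given with and without day 14 replicate 1, and those of the nerve list that were called also without uninjured replicate 3. Lists and single miRNAs are not given without day 14 replicate 3.

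At day 14, 126 of the 321 tested miRNAs differed from uninjured arteries (39.3%, limma, adjusted p under 0.05). Of these, 65 were higher (20.2%) and 61 lower (19.0%). The split rests on the scaling. It was 52 higher and 76 lower with median scaling, 38 and 59 with normexp background correction, and 68 and 4 with no scaling, where the median miRNA rose by 0.52. With the scaling used here the median difference was 0. The 3 day 14 arrays lay wholly above or wholly below the 3 uninjured arrays for 163 miRNAs (50.8%), including 122 of the 126. A difference of at least 1 log2 was reached by 75 of them, 42 higher and 33 lower. Of the 225 miRNAs detected on all 6 arrays, 46 were higher and 45 lower.

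Leaving out day 14 replicate 1 left 85 of the 126 calls (26.5% of those tested), 49 higher (15.3%) and 36 lower (11.2%). All 126 kept their direction, and no other miRNA was called. For the 122 whose arrays lay wholly apart, leaving out 1 array could not have changed the direction. Among the 41 calls that went were 8 of the 10 falls in the nerve and neuron list. Leaving out day 14 replicate 3 instead gave 115 calls, 68 higher and 47 lower. P-values here measure the spread between arteries within groups, pooled over the 16 arrays of all 5 groups. Day 14 and uninjured arteries gave 3 arrays each. A fit of the 2 groups alone called 104 miRNAs, 63 higher and 41 lower, among them 90 of the 126. For 1 miRNA, 3 arrays against 3, the smallest two-sided p of an exact permutation test is 0.1, and the fit across all miRNAs is used in its place.

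**Figure D1:**
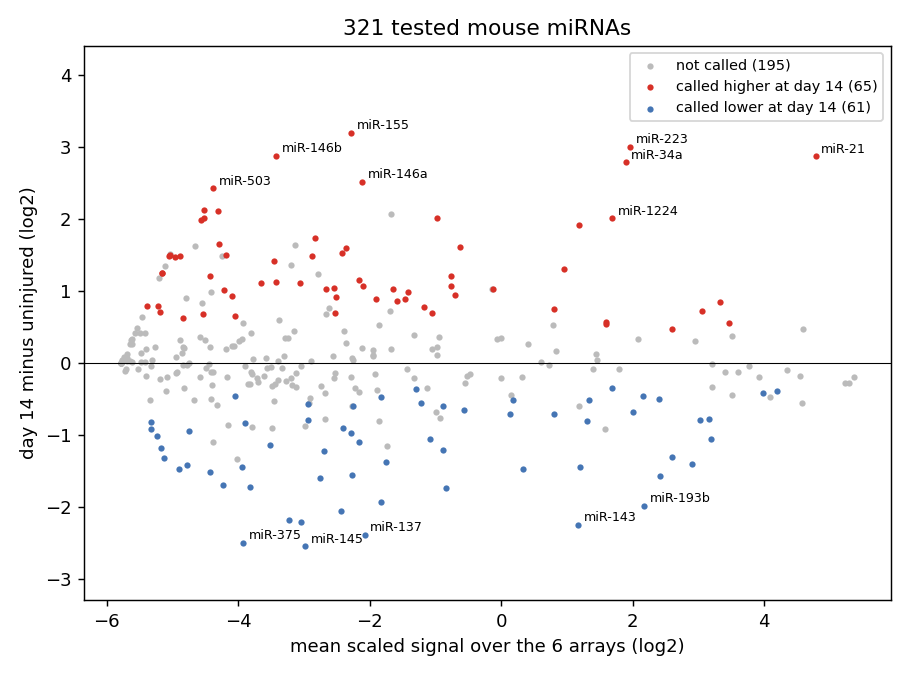
Difference between day 14 and uninjured arteries (vertical axis, log2) against the mean scaled signal over the 6 arrays (horizontal axis, log2) for the 321 tested miRNAs, 1 point each. Red points are the 65 called higher and blue points the 61 called lower; miR-155 is the highest point at 3.20 and miR-145 the lowest at -2.55.

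The largest rises were in miRNAs of leukocytes and of inflammatory and injury responses. Of the 10 miRNAs listed for leukocytes 9 were tested and 7 rose, with a median difference of 1.91 against 0 for all tested miRNAs, and the same number rose without day 14 replicate 1. The summed scaled signal of the 10, on a linear scale, was 3.11, 3.09 and 3.25 on the uninjured arrays and 22.0, 17.8 and 15.1 on the day 14 arrays. In these whole-artery RNAs, more cells of a type and more of a miRNA per cell cannot be told apart. The lists were chosen with earlier results of these data known, so a list's count is no independent check. Beside each count stand the 20.2% of all tested miRNAs that rose and the 19.0% that fell.

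miR-155, which activated macrophages and lymphocytes make, stood at -4.01, -3.96 and -3.68 on the uninjured arrays and at -0.59, -0.63 and -0.83 on the day 14 arrays. The groups lay over 2 log2 apart and each was tight. The rise was 3.20 ± 0.31 log2 (SE), or 9.17-fold (adjusted p = 3.8e-06). miR-223, the main miRNA of neutrophils and monocytes, went from 0.47, 0.59 and 0.33 to 3.81, 3.49 and 3.10. No array overlapped the other group, and the rise was 3.00 ± 0.17 log2, 8.01-fold (adjusted p = 7.5e-08). miR-142-3p, found in all blood cell lineages, went from -1.88, -1.76 and -2.32 to 0.26, -0.02 and -0.15, a rise of 2.02 ± 0.37 (adjusted p = 0.00083). Uninjured replicate 3 was its lowest array and day 14 replicate 1 its highest. miR-342-3p, abundant in lymphoid and myeloid cells, went from 0.18, -0.04 and 0.53 to 2.37, 1.98 and 2.07, a rise of 1.91 ± 0.16 (adjusted p = 8.6e-07). For these 4 the differences without day 14 replicate 1 were 3.15, 2.83, 1.90 and 1.80, all still called.

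miR-146a and miR-146b are induced by NF-kB and repress the adaptors Traf6 and Irak1 of Toll-like receptor signalling. miR-146a measured -3.35, -3.57 and -3.19 in uninjured arteries and -1.02, -0.61 and -0.94 at day 14, a rise of 2.51 ± 0.17 (adjusted p = 1.9e-07). miR-146b measured -4.82, -5.05 and -4.70 against -2.01, -2.08 and -1.86, with 2 of the 3 uninjured arrays above background. Where some arrays of the lower group were not above background, only a lower limit of the fold is given, set by the dimmest probes those arrays did detect. For miR-146b that limit was at least 7.32-fold (difference 2.87 ± 0.18, adjusted p = 1e-07). Both miRNAs separated the groups on every array and changed little without day 14 replicate 1, to 2.59 and 2.89.

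Of 12 miRNAs listed as responding to vascular injury, all were tested and 8 rose, with a median of 1.51, while 20.2% of all tested miRNAs rose. The list shares miR-146a and miR-155 with the leukocyte list. miR-21, which rises in proliferating smooth muscle and in many injured tissues, went from 3.52, 3.47 and 3.07 to 6.69, 6.28 and 5.69. Its rise was 2.87 ± 0.22 log2, 7.30-fold (adjusted p = 4e-07). Every day 14 array lay above every uninjured one, and the rise was 2.63 without day 14 replicate 1.

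The miR-34 family is induced by p53 and holds back the cell cycle. 3 of its 5 tested members rose, with and without day 14 replicate 1. miR-34a went from 0.38, 0.37 and 0.77 to 3.51, 3.40 and 2.97, a rise of 2.78 ± 0.20 (adjusted p = 3e-07). miR-34b-5p and miR-34c, made from 1 precursor transcript at another locus, rose by 1.61 ± 0.26 (adjusted p = 0.00028) and 1.60 ± 0.23 (adjusted p = 0.00016). miR-34b-5p measured -1.83, -1.71 and -0.76 in uninjured arteries and 0.37, 0.16 and 0.00 at day 14. miR-34b-3p, the other strand of its hairpin, was not called at -0.39 ± 0.44, with overlapping arrays.

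**Figure D2:**
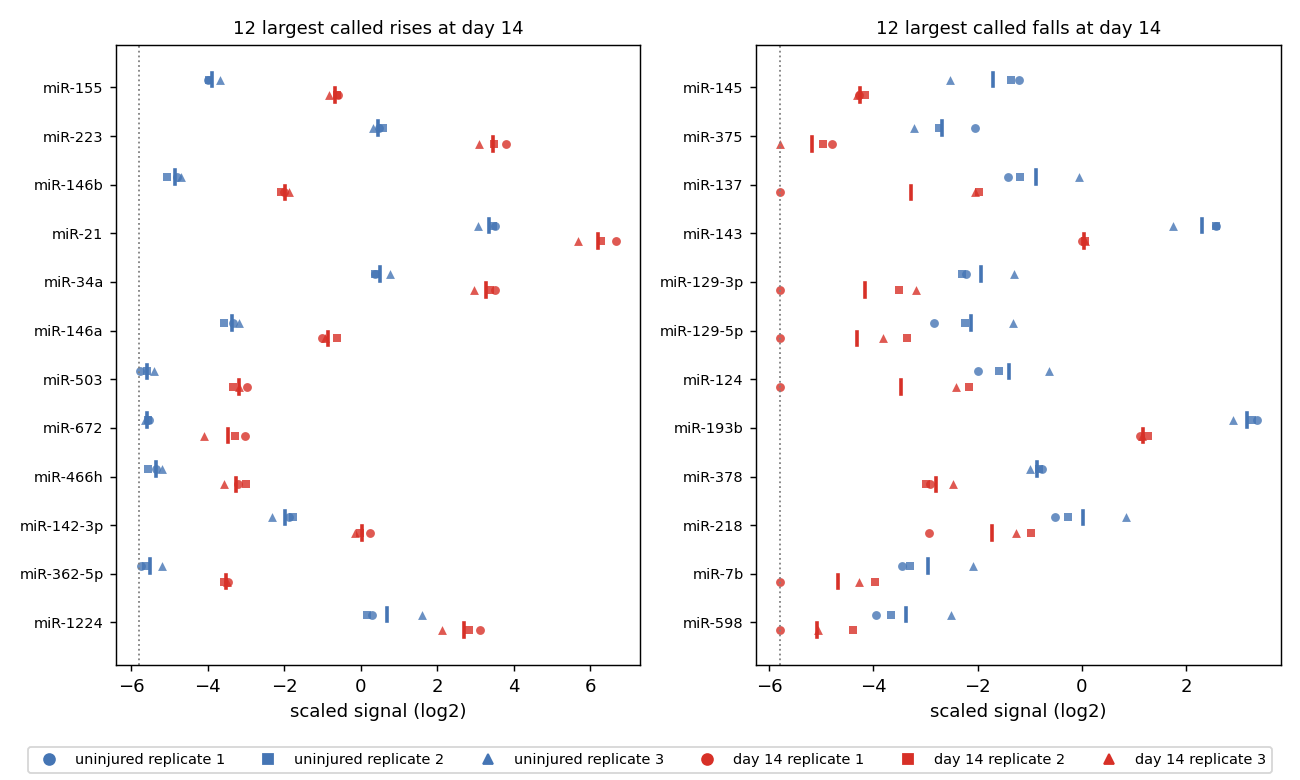
Scaled signal (log2) on each of the 6 arrays for the 12 largest called rises (left) and the 12 largest called falls (right) among miRNAs whose groups do not overlap. Blue marks are uninjured arrays and red marks day 14 arrays, with a shape for each replicate; bars are group means and the dotted line is the floor at -5.79, where day 14 replicate 1 lies for miR-137, miR-129-3p, miR-129-5p, miR-124, miR-7b and miR-598.

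The smooth muscle miRNAs had the lowest median of the lists with at least 2 tested members, at -2.40. miR-143 and miR-145 are made from 1 transcript in contractile smooth muscle, and miR-145 lowers Klf4, a factor that silences contractile genes. Both tested members of the list fell, with and without day 14 replicate 1. miR-145 measured -1.21, -1.37 and -2.53 in uninjured arteries and -4.28, -4.16 and -4.32 at day 14. The day 14 arrays lay within 0.2 log2 of each other, while uninjured replicate 3 lay over 1 log2 below the other uninjured arrays. The fall was 2.55 log2 (SE 0.27, 5.86-fold, adjusted p = 1.1e-05). miR-143 went from 2.57, 2.58 and 1.75 to 0.00, 0.06 and 0.06, a difference of -2.26 ± 0.23 (4.78-fold lower, adjusted p = 5.8e-06). Their summed linear signal was 6.37, 6.36 and 3.53 in uninjured arteries and 1.05, 1.101 and 1.09 at day 14.

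Fat-associated miRNAs fell together. All 6 listed were tested and 5 fell, again 5 without day 14 replicate 1, with a median of -1.49. miR-193b, a brown adipocyte miRNA, went from 3.35, 3.26 and 2.90 to 1.12, 1.27 and 1.15, a difference of -1.99 ± 0.26 (3.98-fold lower, adjusted p = 6.1e-05). miR-365, which lies 4303 bases from it on chromosome 16 and has a second copy on chromosome 11, went from -0.62, -1.20 and -1.34 to -2.64, -2.61 and -2.06 (-1.38 ± 0.22, adjusted p = 0.00027). miR-378, from an intron of the mitochondrial coactivator gene Ppargc1b, went from -0.76, -0.81 and -0.99 to -2.91, -3.00 and -2.47 (-1.94 ± 0.38, adjusted p = 0.0012). For each of the 3 the groups lay apart. The summed linear signal of the list was 12.5, 11.5 and 9.24 in uninjured arteries and 2.89, 3.07 and 3.11 at day 14, and how much fat each dissected artery carried was not tested.

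Both strands of miR-140, a cartilage miRNA within the gene Wwp2, fell. miR-140 went from 3.95, 3.81 and 3.05 to 2.29, 2.26 and 2.04 (-1.40 ± 0.21, adjusted p = 0.00022), and miR-140* from 3.67, 3.44 and 2.49 to 1.62, 1.64 and 1.62 (-1.57 ± 0.25, adjusted p = 0.00027). miR-375, known from pancreatic islets and other endocrine cells, went from -2.06, -2.75 and -3.22 to -4.79, -4.97 and the floor, so that its level was at least 5.68-fold lower (-2.51 ± 0.56, adjusted p = 0.0034). Its day 14 arrays all lay below its uninjured ones.

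The miR-30 family fell in nearly all of its members. Of 9 tested 8 fell, 7 without day 14 replicate 1, with a median of -0.84. miR-30c went from -0.02, -0.25 and -0.56 to -1.53, -1.41 and -1.54 (-1.22 ± 0.14, adjusted p = 2e-05), and miR-30a from 3.93, 3.79 and 3.43 to 2.51, 2.78 and 2.69 (-1.06 ± 0.18, adjusted p = 0.00044). The passenger strands miR-30c-2* and miR-30a* fell by 1.14 and 0.91. In each of the 4 the groups did not overlap. In the miR-29 family, whose targets include collagen messages, 3 of 5 tested strands fell and 1 rose. miR-29c went from 3.46, 3.31 and 3.01 to 1.70, 2.09 and 2.05 (-1.31 ± 0.14, adjusted p = 8.9e-06) and miR-29c* fell by 1.23. miR-29b, 486 bases from miR-29c on chromosome 1 but also made from chromosome 6, differed by -0.50 ± 0.18 (adjusted p = 0.044), and by -0.47 (adjusted p = 0.13) without day 14 replicate 1. Its other strand, miR-29b*, was at least 1.50-fold higher (0.62 ± 0.19, adjusted p = 0.022), was above background on 1 of 3 uninjured arrays, and also lost its call without that array (adjusted p = 0.071).

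Without scaling, where 4 of all 321 miRNAs were lower, limma called fewer members of several lists. In the fat-associated list 1 of 6 was lower (median -0.83). Neither miR-140 strand was called (median -0.83, 1 of 2 at an unadjusted p under 0.05), nor any of 9 miR-30 miRNAs (median -0.18, none at an unadjusted p under 0.05). Of 5 miR-29 miRNAs none was lower and 1 was higher (median 0.16), while miR-143 and miR-145 were both still lower.

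Smaller falls appeared in further lists. In the miR-23, miR-27 and miR-24 clusters 5 of 7 tested strands fell, with a median of -0.44. Without day 14 replicate 1 it was 1 of 7, a share near the 11.2% of all tested miRNAs that fell without it. Without scaling the list's median was 0.22, below the 0.52 of all miRNAs under that setting. miR-23b went from 3.69, 3.47 and 3.09 to 2.40, 2.78 and 2.69 (-0.79 ± 0.17, adjusted p = 0.0023). Both miR-26 miRNAs fell, miR-26b by 0.72 (SE 0.14, adjusted p = 0.0011) and miR-26a by 0.46 (SE 0.17, adjusted p = 0.047), the latter not without day 14 replicate 1 (adjusted p = 0.15). The pair's median was 0.07 without scaling. The share that fell was near the 19.0% of all tested miRNAs in the miR-181 family, with 1 of 5, and not far above it among miR-99, miR-100 and miR-125, with 2 of 7. In the former it was miR-181c, from -1.72, -1.83 and -1.84 to -3.07, -2.75 and -2.52 (-0.98 ± 0.15, adjusted p = 0.00024). In the latter they were miR-125b-5p (-0.78 ± 0.19) and miR-100 (-0.69 ± 0.20). Medians of both of these lists turned positive without scaling, at 0.24 and 0.45. Dropping the scaling adds the same amount to the difference of every miRNA off the floor. A list's place against all miRNAs under that setting is therefore no separate check.

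**Figure D3:**
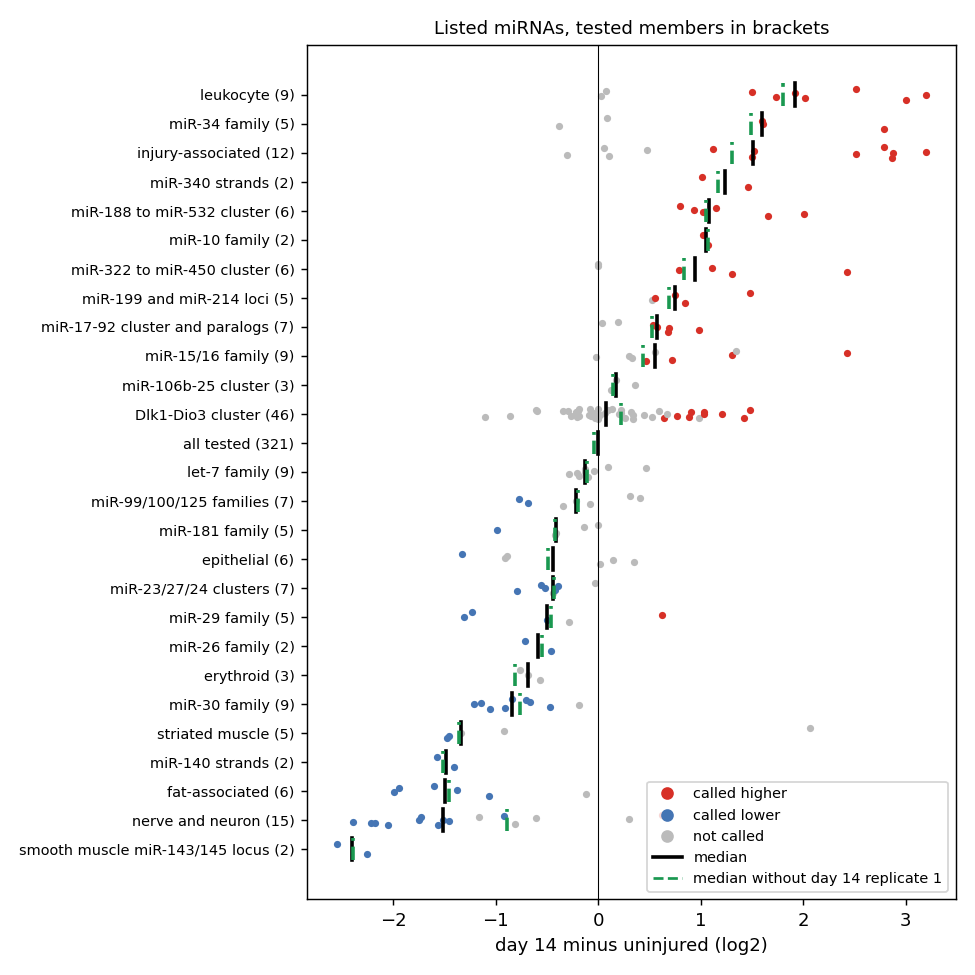
Differences between day 14 and uninjured arteries (horizontal axis, log2) for the tested members of each list, 1 row per list with the number tested in brackets. Red and blue points are called members and grey points are not called; black bars are medians and dashed green bars medians without day 14 replicate 1, which differ most for the nerve and neuron list (-1.52 against -0.89).

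Clusters on the X chromosome rose. The miR-322 to miR-450 cluster, whose miR-322 and miR-503 repress cell-cycle messages, had 4 of 6 tested strands higher (median 0.95), the same number without day 14 replicate 1. miR-503 measured -5.77, -5.59 and -5.42 in uninjured arteries, where 1 of 3 arrays detected it, and -2.98, -3.34 and -3.19 at day 14. It was at least 4.19-fold higher (2.42 ± 0.16, adjusted p = 1.4e-07). miR-322 went from 0.20, 0.27 and 0.46 to 1.69, 1.61 and 1.54 (1.30 ± 0.24, adjusted p = 0.00079). In both, every day 14 array lay above every uninjured one. The miR-188 to miR-532 cluster, in introns of Clcn5, had all 6 tested strands higher (median 1.08), again with and without day 14 replicate 1. Of these 6, 3 were detected on all 6 arrays, against 2 of 6 in the miR-322 to miR-450 cluster. With normexp background correction 3 of 6 were called higher (median 0.46), and 1 of 6 in the miR-322 to miR-450 cluster (median 0.09). miR-362-5p went from -5.74, -5.62 and -5.21, with 1 uninjured array above background, to -3.46, -3.59 and -3.50, at least 3.15-fold higher (2.01 ± 0.16, adjusted p = 6.3e-07). miR-532-5p rose by 1.14 ± 0.14 (adjusted p = 4.7e-05), miR-362-3p by 1.02 ± 0.14 and miR-500 by 0.93 ± 0.19.

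miR-15a and miR-15b, on autosomes, share the seed of miR-322 and also repress cell-cycle messages. In the miR-15/16 list, which holds miR-322 and miR-503 too, 4 of 9 tested strands were higher (median 0.55), and 2 of 9 without day 14 replicate 1. With median scaling 2 of 9 were called higher (median 0.30), and 2 of 9 with the percentile over all mouse probes (median 0.47). miR-15b went from 2.88, 2.98 and 2.25 to 3.55, 3.41 and 3.29 (0.72 ± 0.22, adjusted p = 0.019), and miR-15a from 2.47, 2.53 and 2.12 to 2.90, 2.77 and 2.83 (0.47 ± 0.14, adjusted p = 0.018). These were the pair that lost the call without that array, at adjusted p = 0.070 and 0.064.

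In the miR-17-92 cluster and its paralogs, which Myc induces in dividing cells, 5 of 7 tested strands rose (median 0.57), and 2 of 7 without day 14 replicate 1. The count rests on the scaling. With median scaling 1 of 7 was called higher (median 0.32), and 1 of 7 with the percentile over all mouse probes (median 0.49). miR-18a went from -1.93, -1.66 and -2.12 to -0.65, -0.98 and -1.14 (0.98 ± 0.18, adjusted p = 0.00076), and miR-19b rose by 0.54 ± 0.14 (adjusted p = 0.0080). Of the related miR-106b-25 cluster none of the 3 tested was called by limma, and none at an unadjusted p under 0.05. miR-93, its member with the smallest p, differed by 0.36 ± 0.17 (adjusted p = 0.11).

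Among mesenchymal miRNAs, 4 of 5 tested strands of the miR-199 and miR-214 loci rose (median 0.75), and 3 without day 14 replicate 1. With median scaling 2 of 5 were called higher (median 0.50), and 2 of 5 with the percentile over all mouse probes (median 0.67). miR-199a-3p, whose probe is named for 2 miRNAs, went from 3.06, 2.84 and 2.83 to 3.93, 3.69 and 3.64 (0.85 ± 0.13, adjusted p = 0.00025). miR-214 rose by 0.75 ± 0.19 (adjusted p = 0.0080). miR-10a and miR-10b, encoded in the Hox clusters, both rose. miR-10a went from -1.28, -1.46 and -1.16 to -0.22, -0.16 and -0.31 (1.07 ± 0.18, adjusted p = 0.00044), and miR-10b from -0.89, -0.99 and -0.01 to 0.31, 0.63 and 0.23 (1.02 ± 0.23, adjusted p = 0.0034). Uninjured replicate 3 was the highest uninjured array for miR-10b, yet below all day 14 arrays. Both strands of miR-340 rose as well, by 1.46 ± 0.19 for miR-340-5p (at least 2.05-fold) and 1.02 ± 0.13 for miR-340-3p. With normexp background correction the pair's median was 0.03.

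Of 46 tested strands from the imprinted Dlk1-Dio3 region of chromosome 12, which is active in embryonic and muscle tissue, 9 rose and none fell, a share of members close to the 20.2% of all tested miRNAs that rose. The list's median was 0.08. It was 0.22 without day 14 replicate 1, 0.42 with 12 higher without uninjured replicate 3, and 0.58 with 11 higher without both. Other arrays left out moved it the other way. The median was -0.080 with 6 higher and 2 lower without uninjured replicate 1, and -0.038 with 7 higher without uninjured replicate 2. Without day 14 replicate 2 it was 0.00095, with 7 higher and 2 lower. miR-494 went from -3.94, -3.95 and -2.99 to -2.01, -2.42 and -2.00 (1.48 ± 0.34, adjusted p = 0.0035), miR-299 from -4.43, -4.31 and -3.77 to -2.82, -2.79 and -2.65 (1.42 ± 0.19, adjusted p = 9.4e-05), and miR-379 from -1.67, -1.60 and -0.83 to -0.23, -0.18 and -0.07 (1.21 ± 0.24, adjusted p = 0.0014). In each, uninjured replicate 3 was the highest uninjured array and no array overlapped the other group. Without day 14 replicate 1, 7 of the 46 rose.

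3 of the 12 largest rises belonged to none of the lists. miR-1224, a mirtron, whose hairpin is a short spliced intron, went from 0.29, 0.17 and 1.61 to 3.12, 2.84 and 2.12 (2.01 ± 0.39, adjusted p = 0.0011), with uninjured replicate 3 over 1 log2 above the other uninjured arrays. miR-672 was below background on all uninjured arrays and measured -3.01, -3.29 and -4.08 at day 14, at least 3.58-fold higher (2.11 ± 0.70, adjusted p = 0.030). miR-466h, from the rodent Sfmbt2 intron, was detected on 1 uninjured array and measured -3.21, -2.99 and -3.57 at day 14, at least 3.74-fold higher (2.11 ± 0.73, adjusted p = 0.036). Without day 14 replicate 1 the last pair kept similar differences, 1.89 and 2.09, but not the call (adjusted p = 0.098 and 0.085).

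Most calls among nerve and neuron miRNAs were lost without either of 2 arrays. Of 23 listed miRNAs 15 were tested and 17 were above background on at least 1 of the 6 arrays. With all arrays 10 of the 15 fell and 1, miR-29b*, rose, and the median was -1.52. Without day 14 replicate 1, 2 of 15 fell, a share near the 11.2% of all tested miRNAs that fell without it, and the median was -0.89. Without uninjured replicate 3 instead, 2 fell and 1 rose, with a median of -1.16. Without both arrays none was called by limma, 3 of 15 had an unadjusted p under 0.05, and the median was -0.63. In a fit of the 2 groups alone, 2 fell and 1 rose. miR-29b*, also counted with the miR-29 family, is the member of this list that rose. It and miR-873, 1 of the falls, were not among the nerve and neuron miRNAs named in the design. miR-29b* was kept in the list because its values were already known.

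Per-array values set day 14 replicate 1 apart. miR-137, a neuronal miRNA that regulates synapse and neuron maturation, measured -1.41, -1.18 and -0.05 in uninjured arteries, -1.97 and -2.05 on day 14 replicates 2 and 3, and the floor on replicate 1. Its difference was -2.39 ± 0.82 (adjusted p = 0.034) with that array and -1.13 (adjusted p = 0.10) without it. miR-124, a neuron-specific miRNA, measured -2.00, -1.59 and -0.63 against the floor, -2.17 and -2.42, a difference of -2.05 ± 0.75 (adjusted p = 0.044) that became -0.89 (adjusted p = 0.15). Without uninjured replicate 3 instead, miR-137 differed by -1.97 (adjusted p = 0.11) and miR-124 by -1.67 (adjusted p = 0.14). For both, every day 14 array still lay below every uninjured array, with uninjured replicate 3 the highest of all.

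The strands of miR-129, a brain miRNA, kept their calls without either array alone but not without both. miR-129-5p measured -2.83, -2.24 and -1.33 in uninjured arteries and the floor, -3.35 and -3.81 at day 14. Its difference was -2.18 ± 0.54 (adjusted p = 0.0066), and -1.44 (adjusted p = 0.022) without day 14 replicate 1. miR-129-3p measured -2.22, -2.29 and -1.31 against the floor, -3.51 and -3.17, with -2.22 ± 0.59 (adjusted p = 0.0095) and -1.40 (adjusted p = 0.032). Day 14 replicates 2 and 3 also lay below all uninjured arrays for both strands. Without uninjured replicate 3 the adjusted p was 0.032 for miR-129-5p and 0.043 for miR-129-3p, and without both arrays it was 0.058 and 0.090. For the 5 called falls just named or pictured at the floor on replicate 1, namely miR-137, miR-124, miR-129-5p, miR-129-3p and miR-7b, the levels at day 14 were at least 5.06, 4.02, 4.39, 4.50 and 3.22-fold lower with that array. Without it the fitted folds were 2.19, 1.85, 2.72, 2.64 and 2.27.

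miR-218, enriched in motor neurons, measured -0.51, -0.26 and 0.85 in uninjured arteries and -2.93, -0.97 and -1.25 at day 14. Its difference was -1.75 ± 0.53 (adjusted p = 0.019), and -1.14 (adjusted p = 0.089) without day 14 replicate 1. miR-9* (-1.56 ± 0.49), miR-7b (-1.73 ± 0.50), miR-153 (-1.52 ± 0.44), miR-138 (-1.45 ± 0.50) and miR-873 (-0.92 ± 0.30) likewise lost their calls without that array, at adjusted p = 0.080, 0.071, 0.077, 0.16 and 0.068. Without uninjured replicate 3 none of these 5 was called by limma (adjusted p 0.064 to 0.14), nor was miR-218 (adjusted p = 0.079). miR-138 was the called member whose groups overlapped. miR-598, a neuron-enriched miRNA outside the list, went from -3.95, -3.67 and -2.52 to the floor, -4.39 and -5.06 (-1.70 ± 0.40), at least 3.15-fold lower. Its difference was -1.35 (2.54-fold, adjusted p = 0.028) without day 14 replicate 1 and -0.92 (adjusted p = 0.067) without both arrays.

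The 4 tested members that were not called included glial miRNAs. miR-338-3p, an oligodendrocyte and Schwann cell miRNA, measured 0.88, 1.42 and 2.15 in uninjured arteries and -0.27, 1.68 and 1.24 at day 14, a difference of -0.60 ± 0.44 (adjusted p = 0.33), and -0.03 without replicate 1. miR-219, an oligodendrocyte miRNA, differed by 0.30 ± 0.17. miR-7a measured -1.65, -1.46 and -0.38 against -3.37, -1.72 and -1.87 (-1.16 ± 0.47, adjusted p = 0.070), and miR-128 differed by -0.81 ± 0.44. The arrays of miR-338-3p overlapped, and those of the others did not. miR-138* and miR-338-5p were detected on 2 of the 6 arrays each and were not tested. Summed over the list, the linear signal was 4.89, 6.16 and 11.1 in uninjured arteries and 1.51, 5.39 and 4.44 at day 14, and the number of listed miRNAs detected was 13, 14 and 16 against 7, 15 and 17. Day 14 replicate 1 was the lowest array on both counts, and whether its artery carried less nerve was not tested.

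**Figure D4:**
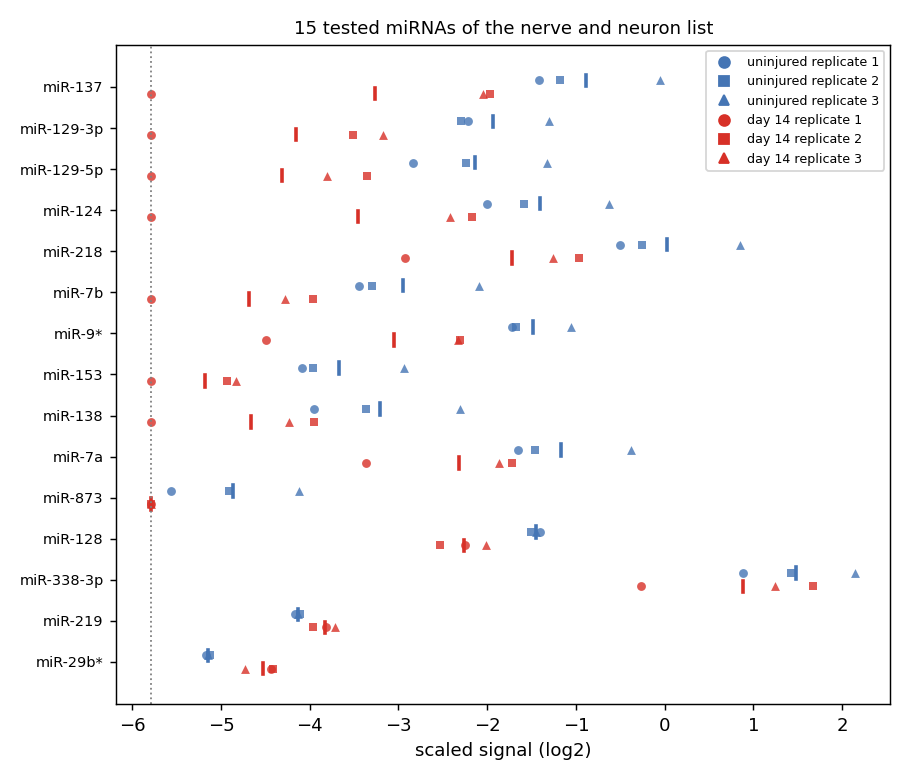
Scaled signal (log2, horizontal axis) on each array for the 15 tested miRNAs of the nerve and neuron list, ordered by their difference. Blue marks are uninjured arrays, red marks day 14 arrays, shapes give the replicate, bars are group means and the dotted line is the floor at -5.79; day 14 replicate 1 (red circles) lies over 1 log2 below both other day 14 arrays for 10 of the 15, and uninjured replicate 3 (blue triangles) above both others for 6.

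Markers of other cell types that an artery preparation can hold were measured too. The endothelial miR-126-3p measured 3.27, 3.34 and 3.37 in uninjured arteries and 3.79, 3.61 and 3.68 at day 14, a difference of 0.37 ± 0.16 that was not called (adjusted p = 0.084), although the groups lay apart. It was called higher under 4 of 24 alternatives, among them a fit of the 2 groups alone. The other listed endothelial miRNA, miR-126-5p, was not tested. None of the 3 erythroid miRNAs was called by limma, nor any at an unadjusted p under 0.05, and their median was -0.69. Without uninjured replicate 3, 2 of the 3 were called lower, with a median of -1.17. With array weights all 3 were, but the fit of the weights stopped before it converged. Without both uninjured replicate 3 and day 14 replicate 1 none was called by limma, with all 3 at an unadjusted p under 0.05 and a median of -1.29. Red cell miR-451 measured 5.28, 5.35 and 3.96 against 4.44, 3.87 and 4.59, with overlapping arrays. Of 5 tested striated muscle miRNAs 2 fell, with a median of -1.33. Without day 14 replicate 1 alone 1 fell, and without uninjured replicate 3 alone 1 fell. Without both arrays none was called by limma, 3 of 5 had an unadjusted p under 0.05, and the median was -1.14. miR-1 was then at -1.25 (adjusted p = 0.065). miR-1 went from 1.28, 0.54 and 1.37 to -0.55, -0.69 and 0.00 (-1.48 ± 0.36, adjusted p = 0.0058), and miR-133a from 1.97, 1.63 and 2.16 to 0.52, 0.22 and 0.67 (-1.45 ± 0.45, adjusted p = 0.021, and 0.053 without day 14 replicate 1). miR-206, a skeletal muscle miRNA, went the other way without a call, from -3.20, -3.26 and -1.64 to -0.17, -2.04 and 0.30 (2.06 ± 0.86, adjusted p = 0.073). Its arrays overlapped and spread widely in both groups.

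Of 6 tested epithelial miRNAs 1 fell, a share near the 19.0% of all tested. It was miR-182, which went from -5.02, -5.06 and -3.31 to the floor on all day 14 arrays (-1.32 ± 0.44, adjusted p = 0.030, and 0.071 without day 14 replicate 1). Its difference was -0.75 (adjusted p = 0.11) without uninjured replicate 3, the highest uninjured array. The liver miR-122 was not tested, since no group detected it on every array. miR-210, induced by low oxygen, was not called (-0.45 ± 0.22, adjusted p = 0.14). None of the 9 let-7 family miRNAs was called by limma, and 1 had an unadjusted p under 0.05. let-7i, the one with the smallest p, measured 4.28, 4.36 and 4.45 in uninjured arteries and 4.98, 4.97 and 4.55 at day 14 (0.47 ± 0.19, adjusted p = 0.073). The family's median was -0.13. It was 0.54 without scaling, a setting that shifts the lists alike (0.52 for all miRNAs).

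For 58 hairpins both strands were tested. The differences of the strands had the same sign in 39 of them, called or not. In 16 of them both were called, 15 in the same direction, among them miR-142-3p with miR-142-5p (2.02 and 1.73), miR-21 with miR-21* (2.87 and 1.50), miR-342-3p with miR-342-5p (1.91 and 1.50) and miR-378 with miR-378* (-1.94 and -1.60). The exception was miR-29b with miR-29b*, at -0.50 and 0.62. In 13 hairpins 1 strand was called and in 29 neither. Strands of a hairpin come from 1 transcript and were read by different probes on the same arrays. The hairpins named here beyond the rule for named miRNAs were chosen after their values were seen.

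Day 14 was also set against the days before and after it. All differences from uninjured arteries use the same 3 uninjured arrays, so the direct contrasts between days are the test. Against day 7, 33 of 321 miRNAs differed (10.3%), 13 higher and 20 lower at day 14. All day 7 arrays lay on the other slide. With slide as a block none was called by limma and 29 had an unadjusted p under 0.05. That block rests on the day 28 arrays, the one group spread over both slides. The count was 1 without day 14 replicate 2, 5 without day 7 replicate 2 and 18 without day 7 replicate 3.

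miR-377 measured -1.26, -0.86 and -0.90 at day 7 and -2.25, -2.29 and -1.90 at day 14, a difference of -1.14 ± 0.25 (adjusted p = 0.017). It was above uninjured arteries at both times, by 2.17 and 1.03. miR-19a measured -1.13, -0.996 and -1.29 against -2.03, -2.39 and -2.13 (-1.05 ± 0.22, adjusted p = 0.015). Its differences from uninjured were 1.74 at day 7 and 0.69 at day 14. Higher than at day 7 were miR-24-1* (0.89 ± 0.16, adjusted p = 0.010) and miR-10b, which measured -0.44, -0.54 and -0.33 at day 7 against 0.31, 0.63 and 0.23 (0.83 ± 0.23, adjusted p = 0.036). For each of these 4 the arrays of the days lay apart.

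Against day 28, 49 of 321 miRNAs differed (15.3%), 18 higher and 31 lower at day 14. With slide as a block 28 were called, 25 of them among the 49. On the shared slide alone, 3 arrays against 2, none was called by limma and 81 had an unadjusted p under 0.05. Without day 14 replicate 1 the count was 21, and without day 14 replicate 2 it was 30. miR-145 measured -3.27, -3.15, -3.31 and -2.95 at day 28 and -4.28, -4.16 and -4.32 at day 14. Day 14 was lower by 1.08 log2 (-1.08 ± 0.26, adjusted p = 0.013), while both days lay below uninjured arteries, by -2.55 at day 14 and -1.47 at day 28. With the slide block miR-145 remained called (adjusted p = 0.047), and without day 14 replicate 1 it was at adjusted p = 0.052.

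miR-30c at day 28 measured -0.56, -0.45, -0.48 and -0.62, above all day 14 arrays (-0.97 ± 0.13, adjusted p = 0.0012), and lay 0.25 below uninjured arteries, where day 14 lay 1.22 below. miR-29b measured 3.19, 3.42, 3.07 and 2.77 at day 28 against 2.07, 2.20 and 2.16 at day 14 (-0.97 ± 0.17, adjusted p = 0.0030). Higher at day 14 were miR-503, at -4.31, -4.38, -3.92 and -4.11 on day 28 (1.01 ± 0.15, adjusted p = 0.0012), and miR-431, miR-379, miR-299 and miR-337-5p of the Dlk1-Dio3 region. miR-431, for one, measured -2.06, -1.94 and -2.09 at day 14 and -3.51, -3.36, -3.21 and -3.47 at day 28 (1.36 ± 0.26, adjusted p = 0.0047), and day 28 differed from uninjured by -0.33. Each kept the call with the slide block except miR-337-5p (adjusted p = 0.096). miR-338-3p was lower at day 14 by 1.67, with its lowest value on day 14 replicate 1, and was not called without that array (-1.09, adjusted p = 0.070).

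**Figure D5:**
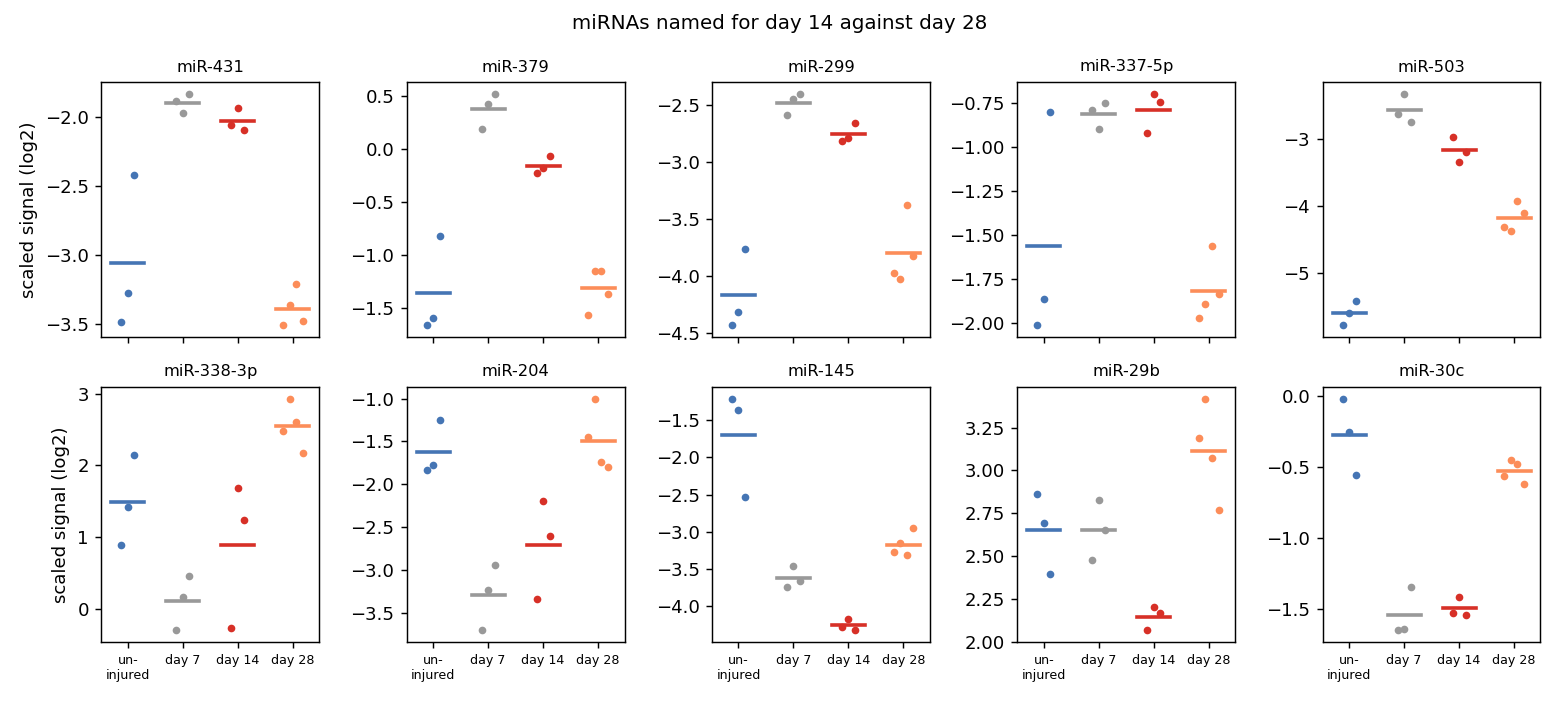
Scaled signal (log2, vertical axes, each panel with its own range) of the 10 miRNAs named for day 14 against day 28, with 1 point per array and a bar at each group mean, in uninjured, day 7, day 14 and day 28 arteries. miR-431, miR-379, miR-299, miR-337-5p and miR-503 in the upper row lay higher at day 14 than at day 28, and the 5 in the lower row lay lower, miR-338-3p by 1.67 with 1 low day 14 array.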

How the data were processed

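Per the labels' protocols, 700 ng of total RNA (miRNeasy kit) per artery sample was labelled with 1 cyanine 3 molecule at the 3′ end and hybridized to 1-colour Agilent mouse miRNA arrays of Sanger release 12. The intensity of each spot was deposited after Agilent Feature Extraction 9.5.1.1, per the file headers. How background was estimated is not given in the sources used here. The authors' deposited value table holds 610 miRNAs as linear intensity with column medians of 3.81 to 16.6, uncentred, and equals the files' total gene signal. Here the processed signal was averaged over a probe's unmarked spots, divided by the array's 75th percentile and floored at 0.0181. The brightest probe stood for a miRNA. Well above background meant at least 50% of a probe's spots. miRNAs so on every array of at least 1 of 5 groups were tested with limma 3.58.1 in R 4.3.3, as 1 model over 16 arrays with eBayes moderation and Benjamini-Hochberg adjustment within each comparison. Input used data.table, release 1.17.8. The fit was tested on simulated data. The number of arrays limits the precision.

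Members, lists and tests were chosen with earlier results of these data known. Named were, per direction, the 12 largest called differences with groups apart, up to 4 members of each list by smallest p, every detected nerve-listed miRNA, and 5 per direction against day 7 and day 28. Leaving out both day 14 replicate 1 and uninjured replicate 3 was chosen after seeing the data, and the other alternatives were scaling, background, filter, floor, probe rule, value table, slide, replicate block, array weights and each replicate left out. Deviations of arrays with the same replicate number correlated at 0.36, -0.073 and 0.21. So few values of mixed sign cannot decide whether the number pairs the arrays, and the main fit treated them as unpaired.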

Additional observations from a re-analysis of the deposited data

Results flagged for a closer look

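The differences between day 14 and the other days that passed the direct test and were largest are given here as values, in log2. All day 7 arrays lay on another slide than the day 14 arrays, and no difference from day 7 was called by limma with slide as a block. Higher at day 14 than at day 7 were miR-24-1* (0.89), miR-10b (0.83), miR-497 (0.80), miR-331-3p (0.79) and miR-1892 (0.77). Lower were miR-377 (-1.14), miR-541 (-1.12), miR-19a (-1.05), miR-224 (-0.97) and miR-365 (-0.86). Of these, miR-365 was below uninjured arteries by 1.38 at day 14 (-1.38, adjusted p = 0.00027) and by 0.53 at day 7 (-0.53, adjusted p = 0.062). miR-224 was on opposite sides of uninjured arteries, at 0.40 on day 7 (adjusted p = 0.090) and -0.57 on day 14 (adjusted p = 0.027).

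Higher at day 14 than at day 28 were miR-431 (1.36), miR-379 (1.16), miR-299 (1.05), miR-337-5p (1.02) and miR-503 (1.01). Lower were miR-338-3p (-1.67), miR-204 (-1.22), miR-145 (-1.08), miR-29b (-0.97) and miR-30c (-0.97). With slide as a block the adjusted p of miR-338-3p was 0.096 and that of miR-204 was 0.11. Day 14 replicate 1 had the lowest value of both, and without it their adjusted p was 0.070 and 0.074. Single samples within groups of 3 were not tested for standing apart.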

How the results depend on the processing

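Of 106 named miRNAs tested against uninjured arteries, 79 were called. For the count of 126 calls (65 higher, 61 lower), no scaling gave 72 (4 lower) and a minimum difference of 1 log2 gave 75 (42 and 33). Normexp gave 38 higher and array weights 103 higher. Leaving out both day 14 replicate 1 and uninjured replicate 3 gave 36 lower. Leaving out 1 replicate gave 85 to 115 calls, with 49 to 68 higher and 36 to 53 lower. The replicate block gave 116 here, 16 against day 7 and 34 against day 28, and whether the shared numbers pair the arteries is not known. The median of all tested miRNAs moved to -0.23 with median scaling, 0.52 with none, -0.15 with normexp, -0.17 with total gene signal, -0.15 with the authors' value table, and reached 0.13 when 1 replicate was left out. Against day 7 (33), the count was 2 with the percentile over all probes, 0 with no scaling (31 at an unadjusted p under 0.05), 16 with normexp, 7 with total gene signal, 5 with the value table, 61 with the 2 groups alone, 0 with the slide block, 130 with array weights, 3 at 1 log2, and 1 to 28 with 1 replicate left out. Against day 28 (49), it was 25 with the percentile over all probes, 31 with median scaling, 0 with no scaling (19 at an unadjusted p under 0.05), 31 with normexp, 28 with total gene signal, 26 with the value table, 0 on the shared slide alone, 28 with the slide block, 8 at 1 log2, and 21 to 46 with 1 replicate left out. Directions turned under no scaling for miR-24-1* (0.11), miR-26a (0.20), miR-27a (0.24), miR-27b (0.14) and miR-29b (0.16), and under normexp for miR-17* (-0.10), miR-29b* (-0.12) and miR-542-3p (-0.0072). With no scaling the difference of every miRNA off the floor moves up by the same amount, which turns small falls positive. For the 3 turns under normexp the cause was not tested. Under array weights the fit of the weights stopped before it converged. Dim signal limits the rest: 33 tested miRNAs were detected on all arrays of neither day 14 nor uninjured arteries.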

Other observations

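Beyond the lists, 15 miRNAs called higher and 18 called lower belong to none of them, and those named in this paragraph were chosen after their values were seen. miR-33, from an intron of Srebf2, represses the cholesterol exporter Abca1. It measured -4.18, -4.12 and -4.19 in uninjured arteries and the floor, -5.53 and -5.59 at day 14 (-1.47, adjusted p = 0.00044), with 2 of 3 day 14 arrays above background. miR-107, from an intron of the pantothenate kinase gene Pank1, measured 1.72, 1.71 and 1.70 against 0.75, 1.01 and 0.93 (-0.81, adjusted p = 0.00047). Its relative miR-103 differed by -0.36 (adjusted p = 0.044). Among the rises, miR-425 went from -1.93, -1.94 and -2.17 to -1.15, -1.17 and -1.16 (0.85, adjusted p = 0.00044), and miR-350 from -1.35, -1.53 and -1.32 to -0.71, -0.78 and -0.66 (0.68, adjusted p = 0.00027). In each of these 5 the groups did not overlap. Without day 14 replicate 1 the adjusted p was 0.0031 for miR-33, 0.0036 for miR-107, 0.17 for miR-103, 0.0025 for miR-425 and 0.0017 for miR-350.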
